A study of Capra hircus with 2 samples.

Results

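MicroRNAs (miRNAs) hosted by genes of lipid and energy metabolism were followed here in the mammary gland of the dairy goat. They were the miRNAs named miR-33 or miR-378 among the conserved miRNAs that the study listed with their sequences in its supplement, which gave 3 of 346, namely miR-33a, miR-33b and miR-378. Neither a second miR-378 gene nor a star strand of any of the 3 was among the names in that list. Small RNA was sequenced in 2 libraries, 1 from the dry period and 1 from peak lactation, each made from mammary gland RNA pooled from 3 Xinong Saanen dairy goats aged 2.5 years, with no replicate library. The goats were not described as carrying any treatment or genetic change. The study placed the dry period at 320 and peak lactation at 75 days after lambing, whereas the sample labels carry these days the other way round (75 for the library titled dry period, 320 for the one titled peak lactation), so the stages were taken from the titles. Because each library is a single pool, intervals and p-values below cover the counting of reads alone, compare the 2 libraries and not the stages, and have no replicate check.

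A miRNA guides an Argonaute protein to messenger RNAs mainly through its seed, the bases from the second to the eighth. In mammals that carry both, miR-33a and miR-33b lie in introns of SREBF2 and SREBF1. These are the genes of the transcription factors that switch on cholesterol and fatty acid synthesis. Both miRNAs are known to repress the cholesterol exporter ABCA1 and enzymes of fatty acid oxidation. miR-378 lies in an intron of PPARGC1B, a coactivator of mitochondrial and lipid genes, and is known from skeletal muscle and fat tissue, where it acts on oxidative metabolism and lipid storage. Milk fat is made by the secretory epithelium during lactation, under the control of SREBP proteins among others. In the goat gene table of assembly ARS1.2, the genes MIR33A, MIR33B and MIR378 fall within the spans of SREBF2, SREBF1 and PPARGC1B, respectively. Transcripts of these host genes were not measured.

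The listed sequences of the 3 miRNAs are shown because every count below rests on them, with the seed (bases 2 to 8) in capitals.
miR-33a: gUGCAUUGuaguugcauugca
miR-33b: gUGCAUUGcuguugcauug
miR-378: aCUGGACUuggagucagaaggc
miR-33a and miR-33b have the same seed and differ over their shared 19 nt at 2 positions, U9C and A10U (the base of miR-33a, the position from the 5′ end, the base of miR-33b), so a tag of 18 nt tells them apart. No other conserved miRNA in the list has either seed. One of the candidate miRNAs that the study proposed, novel_mir_27, carries the seed of miR-378 and is identical to it over 20 nt.
novel_mir_27: aCUGGACUuggagucagaagu

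The authors deposited each distinct clean read sequence, or tag, with its read count. The clean reads summed to 14851375 in the library from the dry period and to 15712891 in the other. These equal the totals that the study gave for the stages named in the titles. A tag was counted for a miRNA when the first 18 nt or more were identical, and counts were expressed as reads per 1000000 clean reads (RPM). Conserved miRNAs took up 61.1% of all clean reads from the dry period gland but 14.4% at peak lactation. The study itself counted reads matching miRNA precursors. Its totals were lower for the dry period and more than double for peak lactation, so its 2 libraries lay closer together. The reason for this difference was not tested. The median log2 fold change (peak lactation over dry period) of the 257 conserved miRNAs with at least 1 RPM in one library was -1.44, and any value per clean read has to be read against this shift.

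miR-378 was the most abundant of the 3 miRNAs. It had 20567 reads in the dry period library, or 1385 RPM (Wilson 95% interval 1366 to 1404), and 13762 reads at peak lactation, or 876 RPM (861 to 891). Its level per clean read at peak lactation was 0.632 times that of the dry period (95% interval 0.619 to 0.646), a log2 fold change of -0.66 (-0.69 to -0.63) that became positive under each of the 4 other scalings tried. The difference was larger than the counting error but did not reach the threshold of the study, an absolute log2 fold change above 1. miR-378 ranked 33 among the 346 miRNAs in the dry period library and 24 at peak lactation. Its neighbours at peak lactation, miR-191 with 13940 reads and miR-185 with 13744 reads, were within its counting interval, while those of the dry period, miR-181a with 21728 reads and miR-342 with 20058 reads, were outside it.

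miR-33a was found at a moderate level. The dry period library held 955 reads of it, or 64.3 RPM (60.4 to 68.5), and the peak lactation library 622 reads, or 39.6 RPM (36.6 to 42.8). The level per clean read at peak lactation was 0.616 times that of the dry period (0.556 to 0.681), a log2 fold change of -0.70 (-0.85 to -0.55, exact Audic-Claverie p = 1.6e-21), which was also short of the threshold and also became positive under the 4 other scalings. Its rank was 108 in the dry period library and 89 at peak lactation. Its level could not be told by counting from those of miR-155 and miR-206 next to it in the dry period library (963 and 912 reads), or from that of miR-106b below it at peak lactation (604 reads). miR-98, just above it at peak lactation with 696 reads, was outside its interval.

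miR-33b, the copy hosted by SREBF1, was close to the limit of detection. It had 15 reads in the dry period library, or 1.01 RPM (0.612 to 1.67), and 3 reads at peak lactation, or 0.191 RPM (0.0649 to 0.561). The ratio of peak lactation to dry period was 0.189 with an interval of 0.0586 to 0.610 (log2 fold change -2.40, -4.09 to -0.71, exact Audic-Claverie p = 0.0030). The 3 reads at peak lactation equal the smallest number that the depth was taken to show. miR-33b entered the comparison only through the dry period library, where it stood just above the minimum of 1 RPM, so it could enter only in a downward direction and its value is given as a description.

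**Figure D1:**
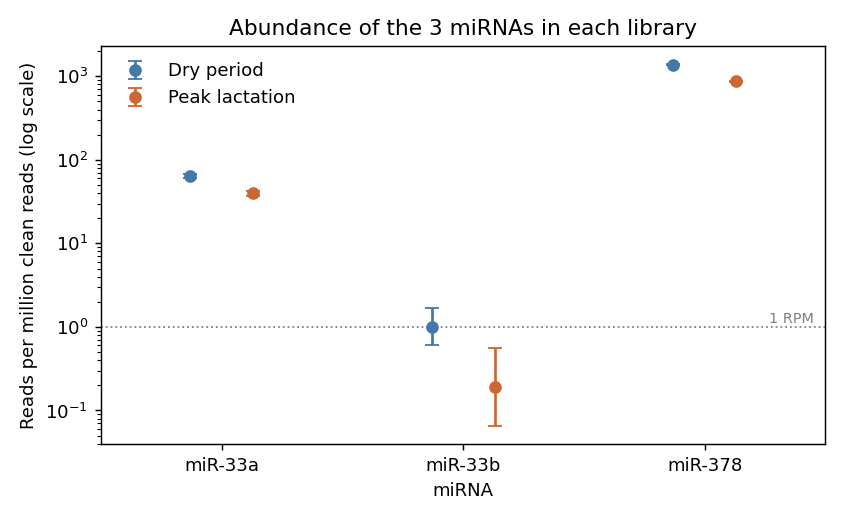
Abundance of miR-33a, miR-33b and miR-378 in RPM on a log axis, with a point for each library (dry period and peak lactation) and bars for the Wilson 95% interval of counting. miR-378 stands at 1385 and 876 RPM, miR-33a at 64.3 and 39.6 RPM, and miR-33b at 1.01 and 0.191 RPM, around and below the dotted line at 1 RPM.

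By the rule of the study, an absolute log2 fold change above 1 with an Audic-Claverie p below 0.01, 1 of the 3 miRNAs was called, miR-33b in the downward direction. The same rule called 68.9% of the 257 tested miRNAs and 67.7% in the downward direction, so the call of miR-33b was a common outcome in these libraries. The call was lost when only identical tags were counted (4 and 1 reads, exact Audic-Claverie p = 0.19), when its full 19 nt were required (11 and 3 reads, p = 0.027 by the same exact test), and under each of the 4 other scalings. The values of miR-378 and miR-33a were above those of most tested miRNAs. The log2 fold changes of 215 tested miRNAs lay below that of miR-378 and those of 210 lay below that of miR-33a, compared with 46 below that of miR-33b. The values of miR-378 and miR-33a were 0.78 and 0.74 above the median of the tested miRNAs, and that of miR-33b was 0.96 below it. A scaling adds the same amount to every log2 fold change, so these distances cannot differ between scalings. The interval of miR-33b (-4.09 to -0.71) included the median of -1.44, so the counts do not settle its side of the distribution.

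The direction of miR-378 and miR-33a depended on what the counts were divided by. Divided by the reads of conserved miRNAs, miR-378 made up 0.227% of them in the dry period library (0.223 to 0.230%) and 0.607% at peak lactation (0.597 to 0.618%), a log2 fold change of 1.42 (1.39 to 1.45). miR-33a made up 0.0105% (0.0099 to 0.0112%) and 0.0274% (0.0254 to 0.0297%), a log2 fold change of 1.38 (1.24 to 1.53). Both were then called in the upward direction, as were 33.1% of the tested miRNAs, while 5.84% were called in the downward direction and 38.9% in either. Under edgeR's TMM factors the values were 0.64 for miR-378 and 0.60 for miR-33a, under DESeq2's size factors 0.74 and 0.70, and per clean read of 21 to 23 nt 0.17 and 0.13. None of the 3 miRNAs was called under these scalings, which called 26.8%, 27.2% and 35.4% of the tested miRNAs, respectively. With all 4 of these scalings both miRNAs were above 0 (for miR-33a per clean read of 21 to 23 nt the interval, -0.01 to 0.28, included 0), and with all clean reads they were below it. miR-33b remained below 0 in each, from -1.57 per clean read of 21 to 23 nt to -0.32 per conserved miRNA read, but every one of these 4 intervals included 0. The TMM and size factors were computed from the counts of conserved miRNAs alone, so they and the conserved miRNA reads are not independent scalings. The values per conserved miRNA read rest on the totals counted here. With the totals that the study reported, which lay closer together, they would be lower.

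**Figure D2:**
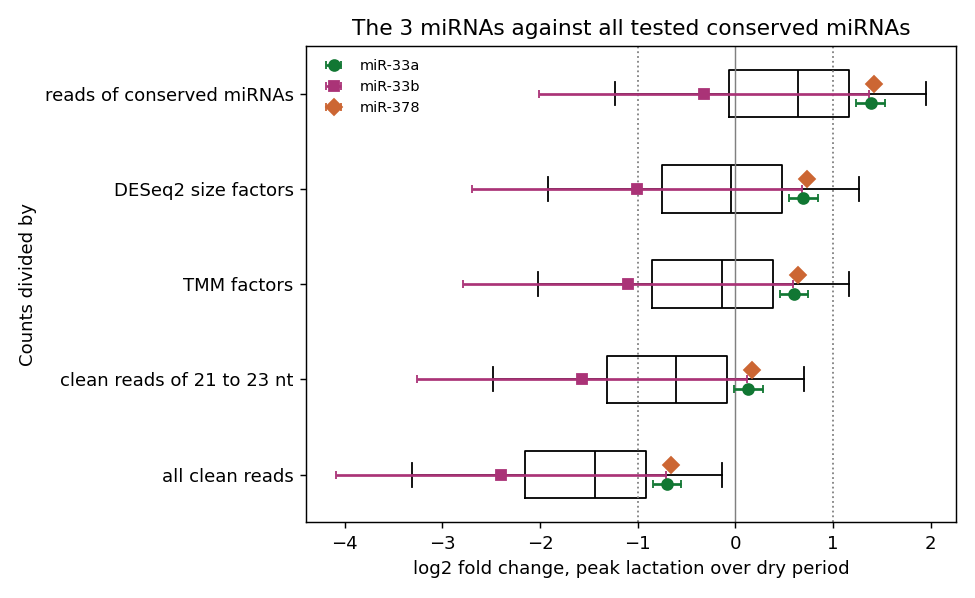
log2 fold change of peak lactation over dry period for the 257 tested conserved miRNAs (box, quartiles and median, whiskers from the 5th to the 95th percentile) and for miR-33a, miR-33b and miR-378 (points with 95% counting intervals) under each of 5 scalings; dotted lines mark -1 and 1. miR-378 moves from -0.66 with all clean reads to 1.42 with reads of conserved miRNAs, and its distance of 0.78 above the median is one that no scaling can change. miR-33a changes sign in the same way, from -0.70 to 1.38.

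The ratio of one miRNA to another within a library does not depend on the scaling. miR-378 had 21.5 reads for each read of miR-33a in the dry period library and 22.1 at peak lactation. The difference between their log2 fold changes was 0.04 (95% interval -0.11 to 0.19, Fisher's exact test, two-sided, p = 0.62, and 0.62 after Benjamini-Hochberg adjustment over the 3 pairs). A p of this size does not show that the ratio was the same in both libraries, and the interval gives the differences that the counts allow. miR-33a had 63.7 reads for each read of miR-33b in the dry period library and 207 at peak lactation, a difference of 1.70 (-0.09 to 3.50, exact p = 0.054, adjusted 0.081). For miR-378 and miR-33b the difference was 1.74 (-0.05 to 3.53, exact p = 0.053, adjusted 0.081). Neither pair with miR-33b passed 0.05. The pairs were formed by name with no minimum level, and the intervals with miR-33b were wide because of its few reads.

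Likeness of the log2 fold change was searched among miRNAs with 100 reads or more in either library. Those closest to miR-378 were miR-30b-5p, miR-22-3p and miR-10b, within 0.0052, 0.0071 and 0.022. For miR-33a they were miR-30d, miR-10b and miR-26a, within 0.0026, 0.017 and 0.032. The closest to miR-33b were let-7i, miR-99a* and miR-214, within 0.029, 0.035 and 0.049. This likeness rests on 2 libraries, so it amounts to a similar ratio and nothing more. For miR-33b, itself below that minimum of reads, the interval (-4.09 to -0.71) was far wider than these distances. Its closest miRNAs therefore could not be told by counting.

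Other miRNAs with a known role in lipid metabolism were compared as a list of 16, all present among the conserved miRNAs and 15 of them tested. By the rule of the study 8 were lower and 1 was higher at peak lactation, against 67.7% and 1.17% of all tested miRNAs, and their median log2 fold change was -1.28 against -1.44. Among those called lower per clean read were miR-128, which acts on the LDL receptor and ABCA1, with 10123 and 1625 reads (log2 fold change -2.72, -2.80 to -2.64), and miR-106b, another repressor of ABCA1, with 2040 and 604 reads (-1.84, -1.97 to -1.71). miR-27a-3p and miR-27b, regulators of fat cell formation, shared the same tags, 22717 and 9647 reads (-1.32, -1.35 to -1.28). They are counted separately among the 8 and the 15 but are not distinct, and all tested miRNAs also include such pairs. miR-122, the liver miRNA of cholesterol metabolism, had 62 and 27 reads (-1.28, -1.93 to -0.63). The values of miR-106b, the miR-27 pair and miR-122 turned positive per conserved miRNA read, that of miR-122 also with both sets of scaling factors and that of the miR-27 pair also with those of DESeq2, whereas that of miR-128 was negative throughout. Also negative under all 5 scalings were miR-34a, a repressor of the deacetylase SIRT1, with 139 and 4 reads (-5.20 per clean read, -6.58 to -3.82), and miR-223, a miRNA of myeloid cells that also acts on cholesterol metabolism, with 302 and 64 reads (-2.32, -2.71 to -1.93). miR-144, which also represses ABCA1 and is abundant in red blood cells, rose from 253 to 557 reads (1.06, 0.84 to 1.27) and was above 0 under every scaling. The value of miR-148a, a further regulator of the LDL receptor, was 0.54 (0.52 to 0.57; 17506 and 27012 reads), and those of miR-103 and miR-107, linked to insulin sensitivity, were -0.33 and -0.25 per clean read and positive under the other scalings. Per conserved miRNA read 1 of the 15 was called lower, miR-34a, and 7 were called higher, against 5.84% and 33.1% of all tested miRNAs, and the median of the list was 0.80 against 0.64 for all tested miRNAs.

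In such whole-tissue libraries fewer cells of a type and less RNA per cell cannot be told apart. Since miR-378 is also abundant in skeletal muscle, the muscle miRNAs were read beside it. All 5 of them were detected in both libraries, with a summed level of 7299 RPM in the dry period and 3874 RPM at peak lactation. miR-1 held most of these reads (106563 and 60258 reads, log2 fold change -0.90), and the 4 others, miR-206, miR-133a, miR-133b and miR-499, were called lower, at -2.60, -1.33, -1.89 and -1.10, whereas per conserved miRNA read none of the 5 was called lower and 1 was called higher. Of all tested miRNAs 67.7% were called lower per clean read, and 5.84% lower and 33.1% higher per conserved miRNA read, and the counts of every cell type list here are to be read against these shares. The summed epithelial miRNAs (miR-200a, miR-200b, miR-200c, miR-141, miR-429 and miR-205) stood at 2687 and 1342 RPM, with 3 of 6 called lower. The immune list (4 miRNAs) summed to 481 and 176 RPM with 3 called lower, the list of smooth muscle and stroma (4 miRNAs) to 21847 and 6490 RPM with 3 called lower, endothelial miR-126 stood at 113 and 67.6 RPM without a call, and the red blood cell list (3 miRNAs) summed to 110 and 190 RPM with 2 called higher. Per conserved miRNA read no marker of these 5 lists was called lower, and the numbers called higher were 3 for epithelium, 2 for the immune list, 1 for smooth muscle and stroma, 1 for endothelium and 3 for red blood cells (33.1% of all tested miRNAs were called higher). No listed marker was at 0 in either library. The part of these cell types in the levels of miR-378 and miR-33a was not tested.

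The ends of the tags were examined next, because the 5′ end sets the seed and the 3′ end is often trimmed or extended after processing. miR-378 had 151 different tags in the dry period library and 139 at peak lactation, of 199 in all, miR-33a had 17 and 14, and miR-33b 7 and 3. The number of different tags grows with the reads, which were 20567 and 13762, 955 and 622, and 15 and 3. These numbers therefore do not compare how varied the ends of the miRNAs are. The most read forms of miR-378 and miR-33a are shown with the bases that depart from or extend the listed sequence in capitals.
miR-378, listed form: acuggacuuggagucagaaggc
miR-378, 1 nt shorter: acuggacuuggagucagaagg
miR-378, A added: acuggacuuggagucagaaggcA
miR-33a, listed form: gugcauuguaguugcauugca
miR-33a, 1 nt shorter: gugcauuguaguugcauugc
miR-33a, A added: gugcauuguaguugcauugcaA

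The listed form of miR-378 had 5384 reads in the dry period library and 3400 at peak lactation, 26.2% (25.6 to 26.8%) and 24.7% (24.0 to 25.4%) of its reads. The form shorter by 1 nt held 23.8% and 23.7%, and the form with an added A 16.6% and 15.9%. No form of miR-378 thus held a majority of its reads in either library. Among the 77 miRNAs with at least 1000 reads in both libraries, the median share of the listed form was 43.5% in the dry period library and 43.2% at peak lactation. Of the other 76, only 8 and 10 had a smaller share of it than miR-378, with miR-16a and miR-16b among them in both libraries. These were counted on the same tags, as were miR-27a-3p and miR-27b, and miR-92 and miR-92a, so the 77 are not all distinct. For miR-33a, in contrast, the listed form held 554 and 380 reads, 58.0% (54.9 to 61.1%) and 61.1% (57.2 to 64.8%), the form shorter by 1 nt 20.3% and 19.6%, and the form with an added A 11.5% and 11.3%.

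The end forms were nearly alike in both libraries. The share of the listed form of miR-378 was lower by 1.47 percentage points at peak lactation (Fisher's exact test, two-sided, p = 0.0023), and that of tags in which a shortened stretch was followed by other bases was higher by 1.94 points, 13.4% against 15.3% (exact p = 4.7e-07). Within this class, the most read form ended in A in place of the last C. It had 1658 and 1232 reads, 8.06% and 8.95% of the reads of miR-378 (exact p = 0.0038). The form that ended in U in place of the last C had 332 and 321 reads, 1.61% and 2.33% (exact p = 2.3e-06). Neither p was adjusted for the number of forms. For miR-33a the share of the listed form differed by 3.08 points between the libraries, which was within the counting error (exact p = 0.23). The reads of miR-33b were too few for such a comparison, with 4 and 1 reads of the listed form.
miR-378, U in place of the last C: acuggacuuggagucagaaggU

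Bases beyond the listed 3′ end were mostly A. In miR-378, 6106 reads of the dry period library and 3924 of the peak lactation library held the whole listed sequence with added bases, 29.7% and 28.5%. The first added base was A in 73.9% and 75.0% of them, U in 22.7% and 21.3%, G in 2.88% and 3.08% and C in 0.442% and 0.612%. In miR-33a the first added base was A in 94.9% and 94.7% of 118 and 75 such reads. The precursors of these miRNAs were not used here, so whether a given added base is encoded in the goat genome was not tested.

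**Figure D3:**
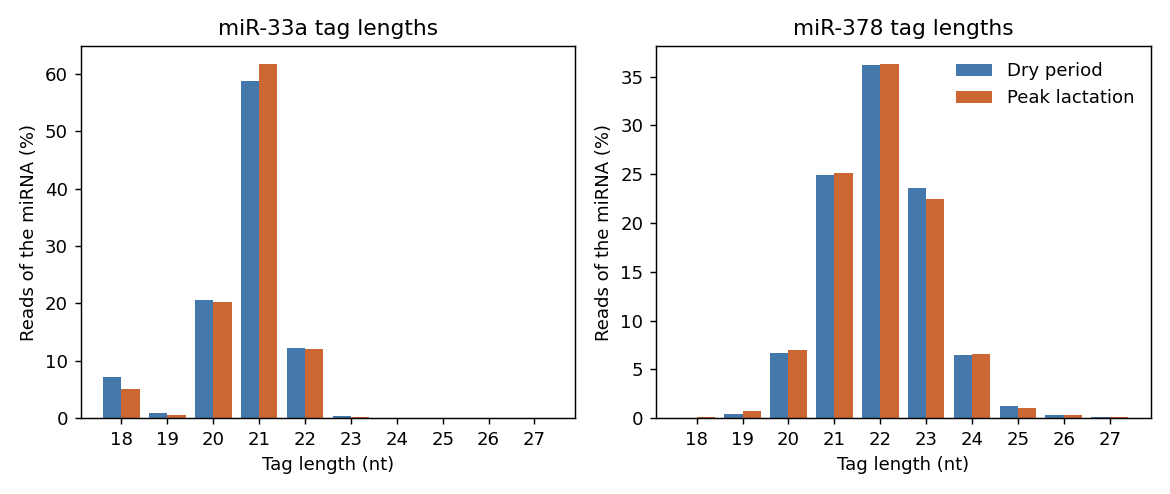
Length of the tags counted for miR-33a (left) and miR-378 (right), in nt, as a share of the reads of that miRNA, with bars for the dry period and peak lactation libraries. miR-33a has its peak at 21 nt (58.7% and 61.7%), while miR-378 is spread over 21, 22 and 23 nt (24.9%, 36.2% and 23.6% in the dry period library, 25.1%, 36.3% and 22.5% at peak lactation).

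The sequence that the study listed as the candidate novel_mir_27 was among the tags counted for miR-378. Tags identical to it had 66 reads in the dry period library and 61 at peak lactation, and they are part of the 20567 and 13762 reads of miR-378. When the tags identical to candidates were left out, miR-378 kept 20501 and 13701 reads and its log2 fold change was -0.66. Tags were assigned by sequence alone, so which gene the tags counted for miR-378 came from was not tested.

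Shifted 5′ ends were frequent in miR-378 and nearly absent in miR-33a. Tags that began 1 base later than the listed sequence had 1743 reads in the dry period library and 1274 at peak lactation, which were 7.75% (7.41 to 8.11%) and 8.39% (7.96 to 8.84%) of the reads with any start up to 2 bases away. Tags that began 2 bases later had 111 and 108 reads, and those that began 1 or 2 bases earlier 66 reads in the dry period library (38 and 28) and 40 at peak lactation (30 and 10). These tags were not counted for miR-378 above. The listed start held 91.5% of the reads in the dry period library and 90.6% at peak lactation, a difference of -0.83 points (exact p = 0.0059). The medians over the 77 abundant miRNAs were 99.1% and 99.2%, and 12 and 11 of the other 76 had a smaller share than miR-378. In miR-33a, 955 of 956 reads and 622 of 623 had the listed start, and in miR-33b all 15 and 3 reads had it. The listed miR-33b is too short for a start 2 bases later to be found by this rule. The lower limits of its 2 shares were 79.6% and 43.9%. The most read tags with the later start are given because bases 2 to 8 (in capitals), and hence the seed, move by 1 base.
miR-378, later start: cUGGACUUggagucagaaggc
miR-378, later start, U added: cUGGACUUggagucagaaggcu
miR-378, later start, A added: cUGGACUUggagucagaaggca

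Tags with the later start also ended differently. Of them, 71.7% in the dry period library (69.5 to 73.7%) and 69.8% at peak lactation (67.2 to 72.2%) went past the listed 3′ end, against 29.7% and 28.5% of the tags with the listed start (Fisher's exact test, two-sided, p = 7.7e-261 and 2.0e-184). The first added base was U in 54.8% and 56.1% of them and A in 40.5% and 35.1%, whereas A prevailed behind the listed start (exact p for A against U = 4.3e-112 and 1.0e-101). The reads of each library come from 1 pool, and the pattern was seen in both libraries.

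Tags with a single substitution in the first 18 nt were not counted for a miRNA, and in miR-378 they were unevenly spread over the positions. Among tags of at least 20 nt with the listed bases at positions 19 and 20, 1410 reads in the dry period library and 1170 at peak lactation had 1 substitution, beside 20385 and 13594 reads without one. Position 16 stood out, with 366 and 433 reads, followed by position 6 (267 and 235 reads) and position 14 (250 and 147 reads), compared with 8 and 2 reads at position 9. Nearly all substitutions at position 16 were A16G (the listed base, its position from the 5′ end, the base of the tag), with 358 and 426 reads. In miR-33a only 26 and 18 such reads were found beside 871 and 580, and no position held more than 5 reads in a library.
miR-378 with A16G, most read tag: acuggacuuggagucGgaaggca

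Relative to unsubstituted miR-378, A16G was more frequent at peak lactation, 3.13% against 1.76% in the dry period library. The log2 ratio was 0.84 (95% interval 0.63 to 1.04, Fisher's exact test, two-sided, p = 1.6e-15, adjusted p = 1.6e-14 over the 10 substitutions with at least 50 reads). A6G, which changes a base of the seed, was the only other one of the 10 past the adjusted threshold of 0.05, with 94 and 109 reads, 0.461% and 0.802% (log2 ratio 0.80, 0.40 to 1.20, adjusted exact p = 4.8e-04). For the other 8 the log2 ratios ran from -0.33 (U14G, 141 and 75 reads) to 0.42 (C15U, 38 and 34 reads). A6C, in the same position as A6G, had 154 and 117 reads and a log2 ratio of 0.19 (-0.16 to 0.54, adjusted exact p = 0.50). These comparisons were chosen after the counts by position had been seen.

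The A16G tags had another length profile than miR-378. Tags of 23 nt made up 63.1% of the A16G reads in the dry period library and 62.2% at peak lactation, against 23.7% and 22.7% of the unsubstituted reads. Tags of 22 nt made up 23.2% and 22.5% against 36.4% and 36.7%, and only 7 and 12 A16G reads had 21 nt, against 5102 and 3444 unsubstituted reads. The other single substitutions together had shares close to those of the unsubstituted form, with 26.4% and 23.4% at 23 nt and 36.6% and 35.9% at 22 nt. The origin of the A16G tags was not tested.

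**Figure D4:**
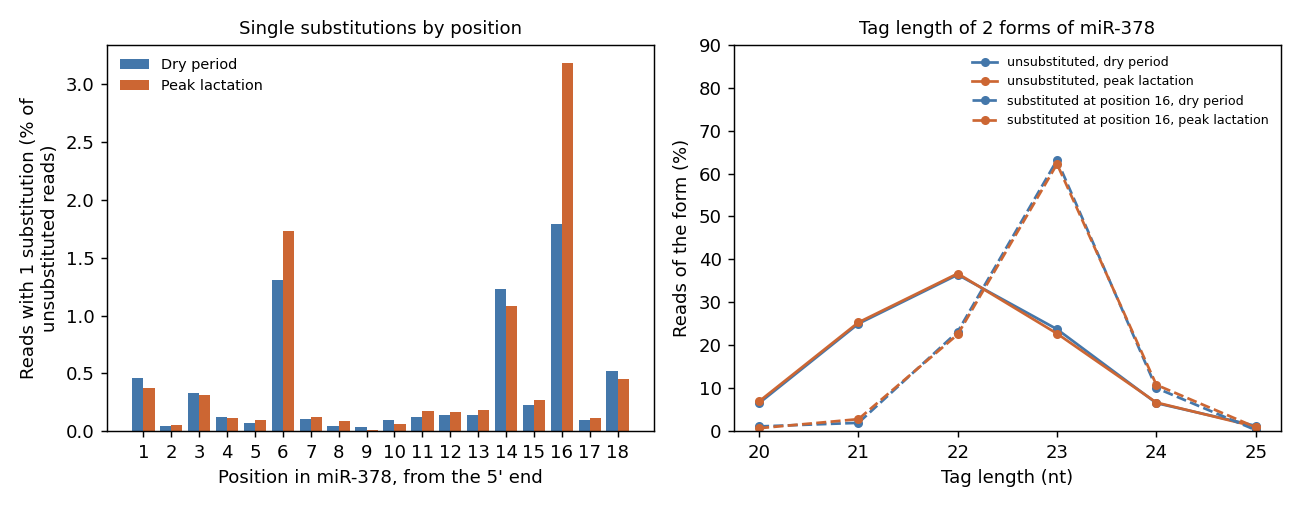
Left, reads with 1 substitution at each of the first 18 positions of miR-378, as a percentage of unsubstituted reads, for the dry period and peak lactation libraries. Right, tag lengths in nt of unsubstituted reads (solid lines) and reads with A16G (dashed lines) as a share of the reads of that form; position 16 is highest in both libraries, and 23 nt holds 63.1% and 62.2% of the A16G reads but 23.7% and 22.7% of the unsubstituted ones.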

How the data were processed

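Small RNA of goat mammary gland was sequenced in 1 library per stage (RNA pooled from 3 goats), and the authors deposited raw counts of clean reads per tag after removing adaptors, low-quality and poly(A) sequences and inserts shorter than 18 nt. The submitters' processing notes name CASAVA. Stages were taken from sample titles. Sequences, but no counts, were read from the study's supplement. Tags were counted for the listed miRNA with the longest identical stretch of at least 18 nt from the 5′ end, and tied tags were counted for each miRNA. A count of 0 was set to 0.01 RPM, and miRNAs under 1 RPM in both libraries were not tested. The Audic-Claverie probability was two-sided from the smaller tail. Intervals are Wilson 95% intervals, for log2 fold changes those of the split of reads between the libraries. Ratios between miRNAs or forms have normal intervals on the log scale. The depth limit of 3 reads equals 0.202 RPM for the dry period and 0.191 RPM for peak lactation. PCR reads without molecular identifiers are not independent molecules, so intervals and limits cover counting error only. Without replicates no count model could be fitted, and edgeR 4.0.16 and DESeq2 1.42.0 (R 4.3.3) gave only scaling factors, from the counts of conserved miRNAs alone. Scripts ran in Python 3.11.15 with scipy 1.17.1, numpy 2.4.6 and, for plots, matplotlib 3.10.9, and counting and tests were tested on simulated data.

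The members and lists were chosen with earlier results of these data known. The miRNAs named were the members, those with the same seed, the lipid and cell type lists, the 3 miRNAs closest in log2 fold change, the neighbours in rank and the most read end forms; further end forms, shifted starts and substitutions were named after their counts had been seen. Alternatives covered counting rules, scalings, low counts and the test.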

Additional observations from a re-analysis of the deposited data

Results flagged for a closer look

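Tags of miR-378 with A16G lie outside the counting of listed miRNAs and were above the limit of 3 reads in both libraries, with 358 reads in the dry period library (24.1 RPM) and 426 reads at peak lactation (27.1 RPM). Their log2 fold change per clean read was 0.17 (95% interval -0.03 to 0.37), against -0.66 for miR-378 and -0.58 (-0.72 to -0.45) for all other single substitutions together, which had 1052 and 744 reads. There were no control samples, and the origin of these tags was not tested.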

How the results depend on the processing

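No paired analysis was possible because each stage had 1 library, and no library could be left out for the same reason. The other counting rules and an added read kept the log2 fold changes of miR-378 and miR-33a below 0 and short of the threshold. Dividing by reads of conserved miRNAs, TMM factors, DESeq2 size factors or clean reads of 21 to 23 nt turned miR-378 to 1.42, 0.64, 0.74 and 0.17 and miR-33a to 1.38, 0.60, 0.70 and 0.13, and ended the call of miR-33b at -0.32, -1.10, -1.01 and -1.57. The call of miR-33b was also lost with identical tags (-2.08, 4 and 1 reads) and with a stretch of 20 nt, or the full 19 nt of its listed sequence (-1.96, 11 and 3 reads).

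Under the same 4 scalings, 100, 69, 70 and 91 of the tested miRNAs were called instead of 177. Lower at peak lactation were 15, 48, 42 and 82 instead of 174, and higher were 85, 21, 28 and 9 instead of 3. Leaving out the minimum of 1 RPM (182) or using an exact binomial test with Benjamini-Hochberg adjustment (174) moved the number little. The difference between miR-378 and miR-33a was -0.12 with identical tags (interval -0.32 to 0.08). With starts at most 1 base away, the share of the listed start of miR-33a differed by 0.105 instead of -0.056 points, a matter of 1 read. With the longer stretch, the share of the listed form of miR-33b differed by -3.03 instead of 6.67 points, on 3 reads at peak lactation. The shares of miR-378 kept their direction and stayed past 0.05.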
